A study of Homo sapiens with 8 samples.

Results

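The 4 bulk RNA-seq libraries of DU145, a human prostate cancer cell line established from a metastasis, were compared as 2 docetaxel resistant libraries against 2 docetaxel sensitive libraries. They were chosen by the sample labels and make up 4 of the 8 libraries of the series, the other 4 being the same design in PC3, a second prostate cancer line. Resistant cells were maintained with 10 nM docetaxel in DMSO, and sensitive cells with 0.1% DMSO. Both variants grew in RPMI medium with fetal bovine serum and antibiotics and were lifted with trypsin before total RNA was turned into SMART-seq mRNA libraries. The resistant variant had been derived earlier, and no source used here states from how many clones. For its single cell capture the paper first moved cells to medium without docetaxel. No source used here states whether the drug was withdrawn before the RNA of these bulk libraries was taken. Long-term resistance and a direct effect of 10 nM docetaxel in the medium therefore cannot be told apart. No label states whether replicate libraries stem from independent cultures. The p-values therefore cover the spread between replicate libraries alone, which may be technical.

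Docetaxel binds microtubules and blocks their turnover, which stops cells in mitosis. Cells that grow in the drug are known to export it, to alter tubulin or the spindle, to change their epithelial identity, or to resist cell death. DU145 is an androgen-independent line with epithelial morphology that makes keratins of simple epithelia, and the comparison asks which genes and functions set its resistant variant apart.

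Total counts were 34222903 and 34714404 in the resistant libraries, against 35929921 and 34780848 in the sensitive libraries. A total of 3 counts, the limit that a count of 0 allows, corresponds to 0.0835 to 0.0877 CPM in these libraries, CPM being the count per 1000000 counts of the library. Such limits and the intervals given below cover counting error only. Levels are given in CPM after TMM scaling, a measure that is compared between libraries for 1 gene and not between genes. Mitochondrial transcripts took 1.27% and 0.501% of the counts in the resistant libraries, against 0.661% and 1.49% in the sensitive libraries, so they split the replicates of both groups. In bulk libraries, fewer cells that express a gene and less RNA per cell cannot be told apart.

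ABCB1, the efflux pump that carries docetaxel out of cells, stood at 1218 and 1011 CPM in resistant cells, against 1.68 and 1.58 CPM in sensitive cells. The gene lies on chromosome 7 from 87503017 to 87713323 (GRCh38, GENCODE 44), and its log2 fold change was 9.41 (SE 0.27). Its groups lay far apart. Of 12 prostate luminal markers 5 and 4 had no counts in the resistant libraries, against 5 and 4 in the sensitive libraries. KLK2 and KLK3, kallikreins secreted by prostate epithelium, were at 0 counts in all 4 libraries. Of the 9 that could be tested, 2 rose and 3 fell, and the 3 became 0 without sensitive replicate 1, without resistant replicate 2 and with the 4 DU145 libraries alone. With the 4 DU145 libraries alone only 5 of these markers were tested. STEAP2, a metalloreductase of the prostate, was higher in resistant cells, with a log2 fold change of 1.71 (SE 0.19). FOXA1, a pioneer factor of luminal cells, had a log2 fold change of -0.65 (SE 0.18), a call that was kept without resistant replicate 1 (-0.97) and lost without any 1 of the other 3 libraries (-0.72 to -0.37).

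Markers of other cell types were near 0 in both variants. The 14 haematopoietic markers summed to 1.51 and 1.72 CPM in resistant cells, against 1.23 and 1.69 CPM in sensitive cells, and of the 7 tested 0 were called by edgeR or DESeq2, with 1 at an unadjusted p under 0.05. Of these 14 genes 7 and 5 were at 0 counts in resistant cells, against 9 and 8 in sensitive cells. The 12 fibroblast markers summed to 9.58 and 7.16 CPM in resistant cells and 10.7 and 8.66 CPM in sensitive cells, with 4 and 3 of them at 0 counts in resistant cells, against 4 and 4 in sensitive cells. Of the 8 tested 1 rose and 0 fell, with 0 falls also by DESeq2 and 1 at an unadjusted p under 0.05. The member that rose was COL3A1, a fibrillar collagen chain, with 11 and 17 counts in resistant cells, against 2 and 0 counts in sensitive cells, a call that was lost without sensitive replicate 2. The 10 endothelial markers summed to 3.15 and 3.44 CPM in resistant cells and 5.05 and 4.97 CPM in sensitive cells, with 4 and 5 of them at 0 counts in resistant cells, against 2 and 2 in sensitive cells, and of the 8 tested 1 rose and 1 fell. ESAM, an endothelial adhesion molecule, rose to 2.30 and 2.69 CPM in resistant cells, against 1.01 and 1.44 CPM in sensitive cells, a call that was lost without sensitive replicate 1 or resistant replicate 2. The member that fell was ERG, an ETS transcription factor with 0 counts in both resistant libraries, against 1.85 and 1.75 CPM in the sensitive libraries, which makes it at least 41.4-fold lower with a floor of 3 counts over the group.

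Of 20238 genes tested with edgeR's quasi-likelihood test, 2513 were higher in resistant cells (12.4%) and 3120 were lower (15.4%) at an adjusted p under 0.05. The count of higher genes was 1380 without sensitive replicate 2 and 1590 without resistant replicate 1. Large changes were more often falls. At least 2-fold, 1021 genes rose and 2002 fell, at least 4-fold 347 rose and 914 fell, and at least 16-fold 96 rose and 238 fell. The balance changed with abundance. Among genes with a mean of 1 to 10 CPM over the 4 libraries, 9.9% rose and 21.0% fell, whereas among those of at least 100 CPM 21.2% rose and 14.6% fell. Protein-coding genes made up 2254 of the rises and 2659 of the falls, and of 3616 long noncoding RNAs tested 174 rose and 348 fell. The median log2 fold change of all tested genes was 0.

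**Figure D1:**
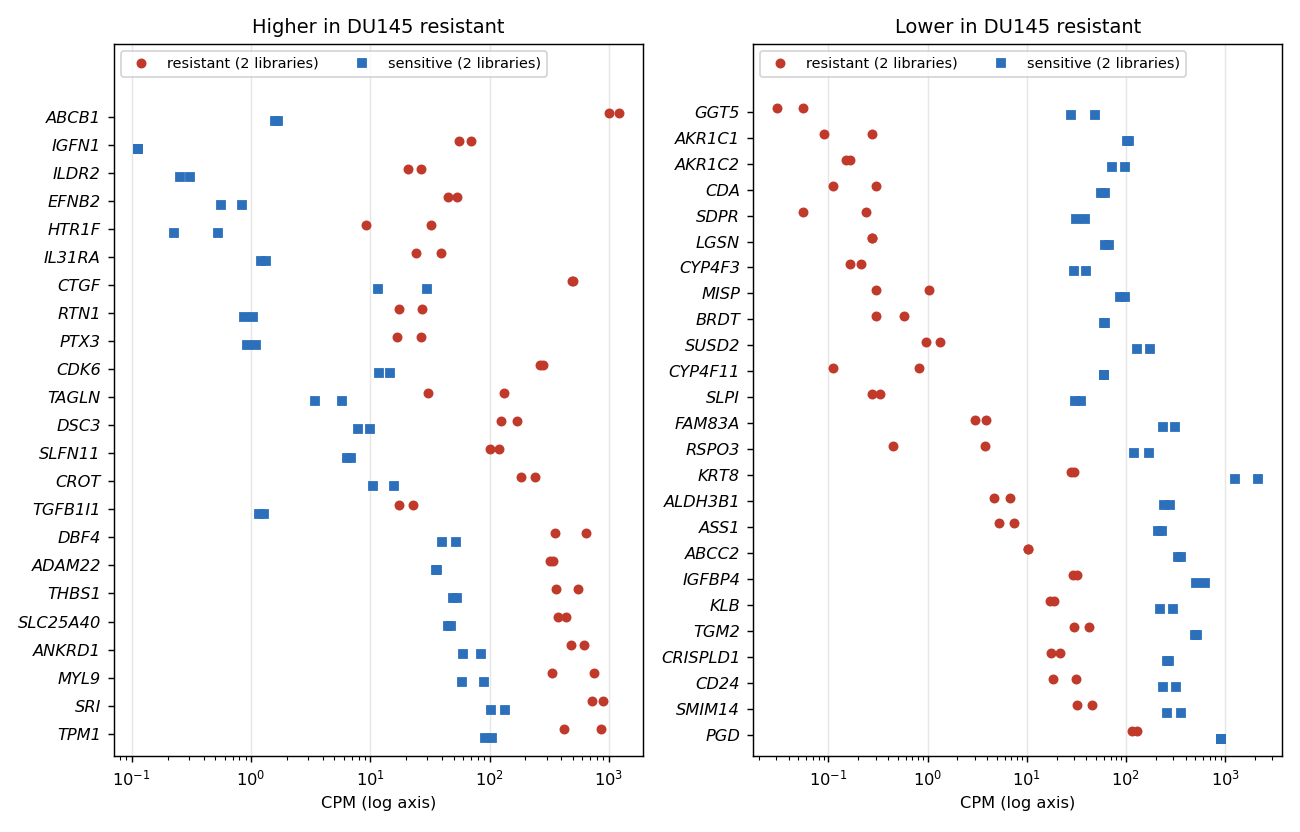
CPM on a log axis in each DU145 library for the genes with the largest rises (left) and falls (right) among protein-coding genes, with resistant libraries as circles above sensitive libraries as squares. The 2 resistant libraries lie apart from the 2 sensitive libraries for every gene shown, as the ranking required. RSPO3 and CYP4F11 are spread most widely between the resistant replicates.

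The largest rises after ABCB1 included several genes of signalling and adhesion at the cell surface. They are given as the ranking that chose them. IGFN1, an immunoglobulin-like and fibronectin domain gene that is not counted among the surface genes, came first. It stood at 70.0 and 55.2 CPM in resistant cells, against 0.112 and 0.113 CPM in sensitive cells. EFNB2, the ligand ephrin-B2 of Eph receptors, stood at 44.6 and 53 CPM in resistant cells, against 0.841 and 0.564 CPM in sensitive cells. Both were close to silent in the sensitive variant. The ranking took only genes whose groups did not overlap, so that trait was set by the choice. Of all tested genes, 29.2% lay higher and 32.1% lower in resistant cells without overlap. ILDR2, an immunoglobulin-like receptor, reached 26.5 and 20.8 CPM in resistant cells, against 0.252 and 0.310 CPM in sensitive cells. IL31RA, a chain of the interleukin-31 receptor, reached 24.2 and 38.9 CPM in resistant cells, against 1.35 and 1.21 CPM in sensitive cells. DSC3, the desmosomal cadherin desmocollin-3, reached 170.8 and 124.3 CPM in resistant cells, against 9.93 and 7.81 CPM in sensitive cells. Thus a desmosomal cadherin rose in the same cells in which the classical cadherin CDH1 fell, as given below. HTR1F, a serotonin receptor, differed widely between the resistant libraries, at 32.4 and 9.27 CPM, and stood at 0.533 and 0.226 CPM in sensitive cells.

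Secreted and intracellular regulators made up most of the other rises. PTX3, the secreted pentraxin of innate immunity, stood at 26.7 and 16.7 CPM in resistant cells, against 0.925 and 1.10 CPM in sensitive cells. SLFN11, a factor that blocks stressed replication forks, stood at 119.8 and 101.1 CPM in resistant cells, against 6.39 and 6.91 CPM in sensitive cells. CDK6, the cyclin D partner kinase of the G1 phase, stood at 279.9 and 265.3 CPM in resistant cells, against 11.8 and 14.7 CPM in sensitive cells. Its log2 fold change was 4.36 (SE 0.17), with replicates that lay close together in both groups. RTN1, a reticulon of the endoplasmic reticulum, rose by a log2 fold change of 4.55 (SE 0.42). TGFB1I1, the focal adhesion adaptor Hic-5, rose by 4.02 (SE 0.23) on the same scale.

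Among the 12 largest rises of at least 100 CPM, 7 lay on chromosome 7: ABCB1, CROT, SLC25A40, DBF4, ADAM22, SRI and CDK6. CROT, a peroxisomal carnitine acyltransferase, starts at 87345664 just before ABCB1, and SRI, the calcium-binding protein sorcin, ends at 88226993 beyond it (GRCh38). CROT stood at 240.9 and 184.7 CPM in resistant cells, against 15.7 and 10.5 CPM in sensitive cells. SRI stood at 884 and 728 CPM in resistant cells, against 134.6 and 101.8 CPM in sensitive cells. DBF4, the activating subunit of the CDC7 replication kinase, had a log2 fold change of 3.42 (SE 0.27). SLC25A40, a mitochondrial carrier, had 3.13 (SE 0.14) and ADAM22, a catalytically inactive member of the ADAM family, had 3.20 (SE 0.13) on the same scale.

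The other abundant rises were of matrix, actin and contractile genes. CTGF, connective tissue growth factor, stood at 489 and 505 CPM in resistant cells, against 11.6 and 29.7 CPM in sensitive cells. ANKRD1, a nuclear and sarcomeric ankyrin repeat protein, stood at 615 and 478 CPM in resistant cells, against 59.8 and 84.1 CPM in sensitive cells. THBS1, the matrix protein thrombospondin-1, stood at 550.4 and 357 CPM in resistant cells, against 49.4 and 53.5 CPM in sensitive cells. CTGF and ANKRD1 are well known as targets of the coactivators YAP and TAZ, which act through TEAD factors at the DNA motif GGAATG. TPM1, a tropomyosin, stood at 859 and 423 CPM in resistant cells, against 104.2 and 91.1 CPM in sensitive cells. MYL9, a myosin regulatory light chain, stood at 756 and 333 CPM in resistant cells, against 89.5 and 58.9 CPM in sensitive cells. TAGLN, the actin-binding protein transgelin, was less abundant, at a mean of 43.2 CPM, and came from the ranking of at least 10 CPM. It stood at 132.9 and 30.7 CPM in resistant cells, against 3.42 and 5.78 CPM in sensitive cells. In all of these 3 contractile genes resistant replicate 1 lay well above resistant replicate 2. Both lay above the sensitive libraries, as the ranking required.

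The promoters of CTGF and ANKRD1 are shown because both genes rose and hold more than 1 match to the TEAD motif, searched on both strands and given in capitals. Each runs from 250 bases before to 50 bases after the RefSeq start on the minus strand (GRCh38.p14), at chr6:131951323-131951622 for CTGF and chr10:90921038-90921337 for ANKRD1.
CTGF: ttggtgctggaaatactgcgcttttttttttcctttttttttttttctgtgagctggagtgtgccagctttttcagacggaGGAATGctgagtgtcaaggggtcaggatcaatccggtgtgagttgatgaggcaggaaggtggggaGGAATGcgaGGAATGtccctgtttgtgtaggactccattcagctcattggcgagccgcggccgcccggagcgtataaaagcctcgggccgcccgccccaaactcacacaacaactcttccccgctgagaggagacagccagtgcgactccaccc
ANKRD1: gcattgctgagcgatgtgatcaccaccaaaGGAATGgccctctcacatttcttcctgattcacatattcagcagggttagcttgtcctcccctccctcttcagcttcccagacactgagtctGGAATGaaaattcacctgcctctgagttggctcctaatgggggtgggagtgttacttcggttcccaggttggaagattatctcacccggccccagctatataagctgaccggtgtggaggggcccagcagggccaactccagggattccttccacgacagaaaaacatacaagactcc
CTGF held 3 matches and ANKRD1 held 2. The motif was in 14.1% of all 27305 promoters and in 11.2% of the 13237 that matched a tested gene. It was in 11.2% of the promoters of genes that rose and 11.6% of those of genes that fell, so the shares in both directions lay close to that of all tested genes. A match is a description of the sequence and not a bound site.

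The deepest falls were of metabolic enzymes that were abundant in sensitive cells and nearly silent in resistant cells. GGT5, a gamma-glutamyltransferase, had 3 counts in the resistant libraries together, against 2721 in the sensitive libraries, a ratio of 880-fold lower with a counting interval of 301 to 4270. AKR1C1 stood at 0.0909 and 0.278 CPM in resistant cells, against 103.8 and 107.1 CPM in sensitive cells. AKR1C2 stood at 0.152 and 0.167 CPM in resistant cells, against 97.1 and 73.1 CPM in sensitive cells. Both are aldo-keto reductases that reduce steroids and carbonyls, and they are close in sequence, so how their reads were split between them is uncertain. CDA, the cytidine deaminase that inactivates cytidine analogues, stood at 0.303 and 0.111 CPM in resistant cells, against 61.5 and 55.6 CPM in sensitive cells. The omega-hydroxylases CYP4F3 and CYP4F11 changed by -7.5 (SE 0.36) and -7.04 (SE 0.50) on the log2 scale, and they too belong to a cluster of similar genes.

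Regulators and secreted proteins were also among the deepest falls. RSPO3, a secreted enhancer of Wnt signalling, stood at 3.79 and 0.444 CPM in resistant cells, against 172.1 and 122.0 CPM in sensitive cells. BRDT, a testis bromodomain protein, stood at 0.303 and 0.583 CPM in resistant cells, against 60.5 and 61.1 CPM in sensitive cells. Neither of these genes had overlapping groups, which the ranking required. SLPI, a secreted inhibitor of leukocyte proteases, fell by 6.74 (SE 0.53) on the log2 scale. SDPR, a coat protein of caveolae, changed by -7.88 (SE 0.50), LGSN, a lens protein related to glutamine synthetase, by -7.86 (SE 0.32), and MISP, an actin-bundling spindle positioning protein, by -7.12 (SE 0.54). SUSD2, a membrane protein, and FAM83A, a signalling adaptor, changed by -7.05 (SE 0.31) and -6.32 (SE 0.42).

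Abundant genes that fell covered a drug pump, a growth factor binding protein and enzymes of central metabolism. ABCC2, the export pump MRP2 for conjugated drugs, stood at 10.2 and 10.2 CPM in resistant cells, against 359 and 337 CPM in sensitive cells. Its change of -5.09 (SE 0.15) ran opposite to that of ABCB1 in the same libraries. ASS1, the argininosuccinate synthase of arginine synthesis, stood at 5.27 and 7.44 CPM in resistant cells, against 212 and 229 CPM in sensitive cells. PGD, the 6-phosphogluconate dehydrogenase of the pentose phosphate pathway, stood at 129.9 and 115.3 CPM in resistant cells, against 901 and 915 CPM in sensitive cells. IGFBP4, which binds insulin-like growth factors, fell by 4.21 (SE 0.19) on the log2 scale. TGM2, a protein crosslinking transglutaminase, changed by -3.79 (SE 0.19), KLB, a coreceptor of hormone-like FGFs, by -3.86 (SE 0.22), and CD24, a surface mucin-like glycoprotein, by -3.48 (SE 0.36). CRISPLD1, a secreted protein, and SMIM14, a small membrane protein, changed by -3.75 (SE 0.16) and -2.99 (SE 0.26).

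Long noncoding RNAs changed less in the upward direction, 1 clone-named transcript apart. RP11-166D19.1 stood at 17.4 and 47.9 CPM in resistant cells, against 0.196 and 0.677 CPM in sensitive cells. The next rises were LINC01588 at a log2 fold change of 1.70 (SE 0.29), MIR22HG, a host transcript of a microRNA, at 1.67 (SE 0.29), NRAV at 1.64 (SE 0.24) and SNHG17, a small nucleolar RNA host gene, at 1.42 (SE 0.23). LINC00667 changed by -4.03 (SE 0.30), LINC00707 by -3.0 (SE 0.33), RP11-554I8.2 by -2.34 (SE 0.23) and CASC10 by -2.21 (SE 0.26). DHRS4-AS1 fell by 2.39 (SE 0.23), and since the strand setting of the counting is not given, its reads cannot be told apart from those of genes it overlaps.

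To describe functions, 52 gene lists were set beside all tested genes. Among lists with at least 8 tested members, the 20 whose median lay farthest from that of all genes are described in full. The epithelial and prostate markers are described besides. A share of members called is read against the 12.4% higher and 15.4% lower of all tested genes. Those shares were 15.2% and 17.9% for protein-coding genes, and 21.2% and 14.6% for genes of at least 100 CPM. A list of abundant genes may thus exceed the share of all genes through abundance alone. Counts given with a library left out rest on fewer samples to test on.

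**Figure D2:**
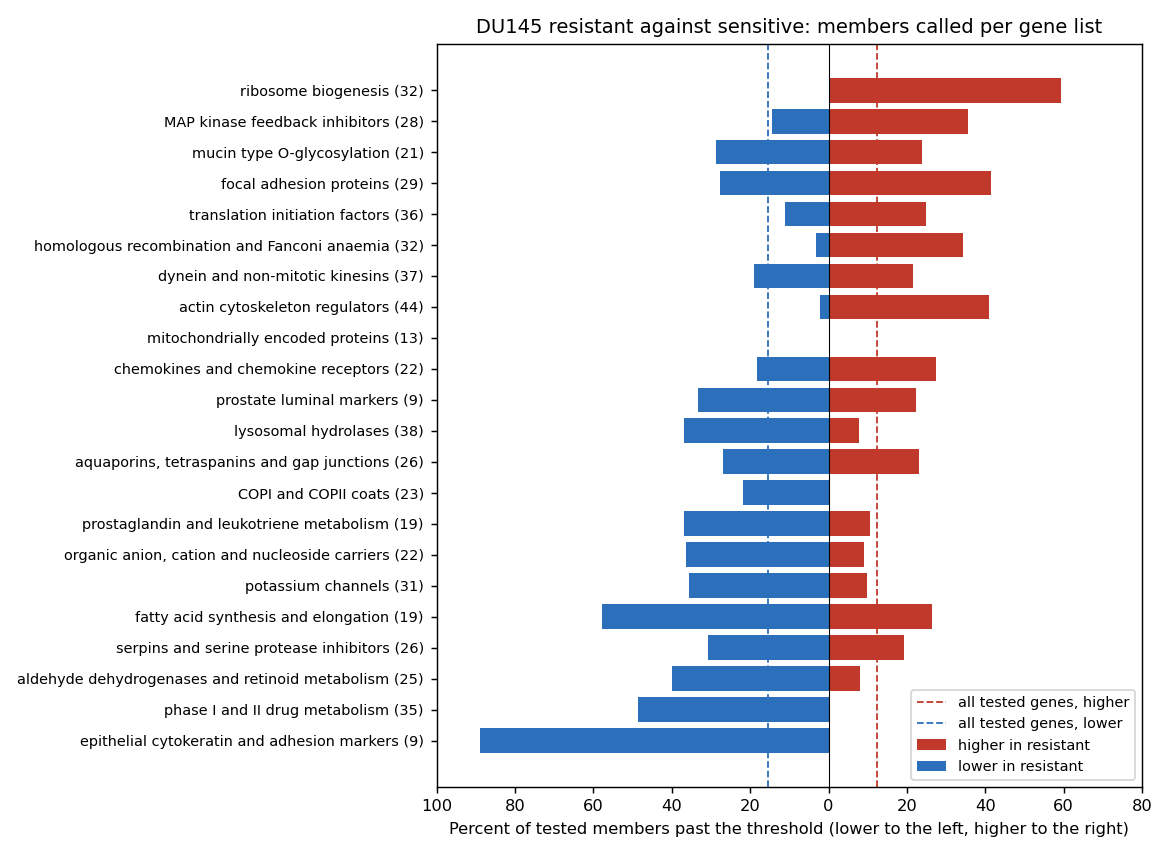
Percent of the tested members of each gene list (number in brackets) that were higher (right) or lower (left) in DU145 resistant cells, ordered by median log2 fold change, with dashed lines at 12.4% higher and 15.4% lower for all tested genes. The largest share that fell was that of epithelial markers (88.9%) and the largest share that rose that of ribosome biogenesis factors (59.4%).

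Epithelial keratins and junction proteins were lower in resistant cells. Of 9 tested markers 8 fell and 0 rose, with 0 rises also by DESeq2 and at an unadjusted p under 0.05. Their median log2 fold change was -2.65, and 8 fell with any 1 library left out. KRT8, the keratin of simple epithelia, stood at 28.2 and 29.7 CPM in resistant cells, against 2166 and 1247 CPM in sensitive cells, a log2 fold change of -5.88 (SE 0.30, edgeR adjusted p = 8.24e-07). Its partner KRT18 stood at 330.4 and 155.2 CPM in resistant cells, against 1911 and 1136 CPM in sensitive cells. Both keratins have many processed copies in the genome, among which reads may be split. CDH1, the E-cadherin of adherens junctions, stood at 0.364 and 0.472 CPM in resistant cells, against 24.2 and 20.9 CPM in sensitive cells. The tight junction claudin CLDN7 stood at 0.182 and 0.222 CPM in resistant cells, against 3.20 and 2.71 CPM in sensitive cells. ESRP1, a splicing factor of epithelial cells, stood at 0.455 and 0.694 CPM in resistant cells, against 2.38 and 5.87 CPM in sensitive cells. The whole list summed to 640 and 371 CPM in resistant cells, against 5004 and 3185 CPM in sensitive cells. EPCAM, an epithelial surface glycoprotein, was the member that did not pass, at 19.2 and 16.9 CPM in resistant cells, against 21.7 and 19.8 CPM in sensitive cells. Epithelial genes thus fell by very different amounts within 1 list.

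Regulators of the actin cytoskeleton were higher. Of 44 tested, 18 rose and 1 fell, with a median of 0.28. The count that rose was 10 without resistant replicate 1 and 11 without sensitive replicate 2. Besides TPM1 and TAGLN, CNN2, the actin-binding calponin-2, stood at 381 and 238 CPM in resistant cells, against 125.9 and 99.6 CPM in sensitive cells. FLNC, the actin crosslinker filamin C, stood at 416 and 367 CPM in resistant cells, against 144.2 and 160.7 CPM in sensitive cells, and FMNL3, a formin, had a log2 fold change of 1.17 (SE 0.15). Focal adhesion proteins moved both ways, with 12 of 29 higher and 8 lower and a median of 0.32. The 12 became 7 without resistant replicate 1 or without sensitive replicate 2. The members named next were chosen by size of change and all fell, whereas the rises were smaller, at most 1.62 on the log2 scale. TNS3 and TNS4, tensins that link integrins to actin, changed by -2.15 (SE 0.18) and -4.69 (SE 0.56). PTK2B, the kinase PYK2, stood at 4.82 and 6.55 CPM in resistant cells, against 43.9 and 55.8 CPM in sensitive cells.

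**Figure D3:**
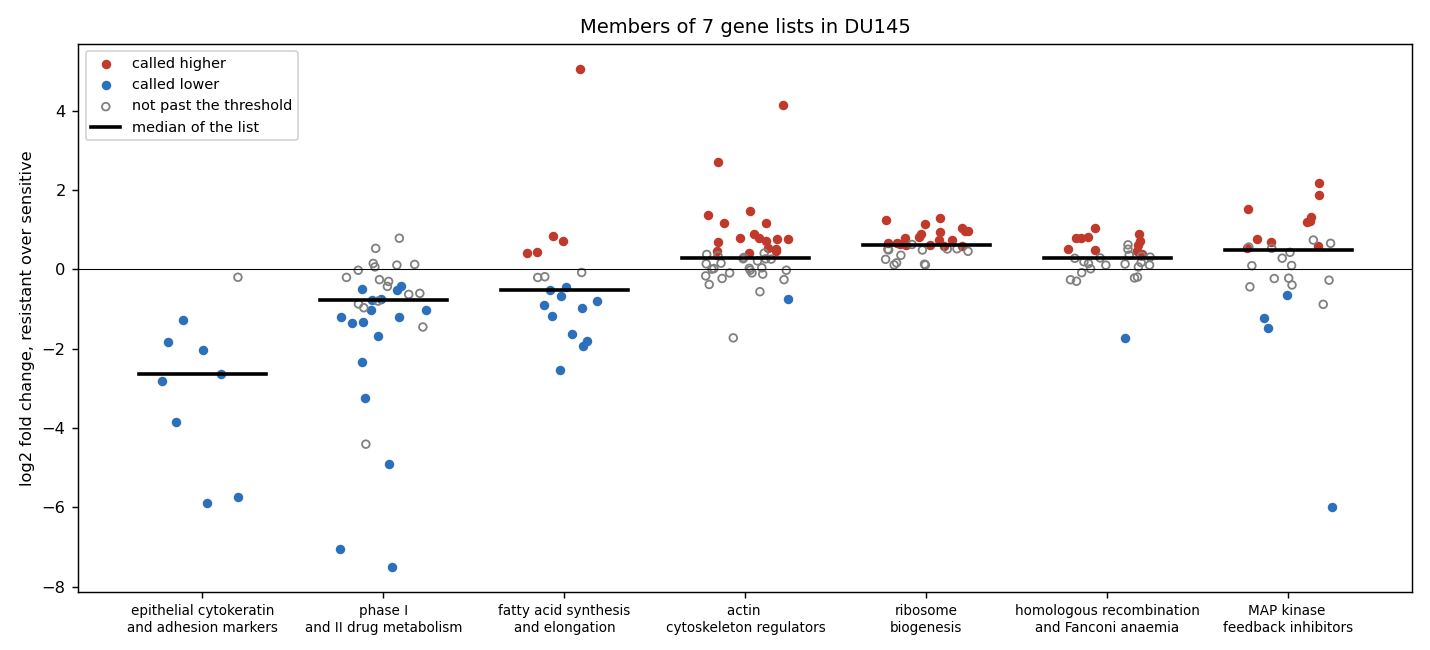
Log2 fold change of each tested member of 7 gene lists in DU145 resistant over sensitive cells, with called members filled, members past no threshold open, and the median of the list as a bar. Epithelial markers centre on -2.65, drug metabolism on -0.77 and fatty acid synthesis on -0.51, whereas ribosome biogenesis centres on 0.62 with members close together.

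Enzymes that modify drugs and aldehydes were lower. Of 35 tested phase I and II drug metabolism genes 17 fell and 0 rose, with a median of -0.77. DESeq2 called 1 rise, and 1 had an unadjusted p under 0.05 in edgeR. CYP24A1, the hydroxylase that inactivates vitamin D, stood at 21.1 and 10.3 CPM in resistant cells, against 84.3 and 74.9 CPM in sensitive cells. CES3, a carboxylesterase, fell by 3.24 (SE 0.46) on the log2 scale, beside CYP4F3 and CYP4F11 above. Of 25 aldehyde dehydrogenases and retinoid enzymes 10 fell and 2 rose, with a median of -0.75, and the 2 became 1 without resistant replicate 1 or sensitive replicate 2. ALDH3B1, which oxidizes lipid aldehydes, stood at 6.76 and 4.66 CPM in resistant cells, against 277 and 241 CPM in sensitive cells. ALDH2, the mitochondrial enzyme that clears acetaldehyde, stood at 8.82 and 10.8 CPM in resistant cells, against 74.9 and 84.4 CPM in sensitive cells. ALDH1L2, of mitochondrial folate metabolism, changed by -4.46 (SE 0.38), ALDH3A1 by -4.42 (SE 0.67) and RDH10, a retinol dehydrogenase, by -2.48 (SE 0.28). The falls thus spanned cytosolic and mitochondrial members of the family.

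Solute carriers for organic ions and nucleosides showed 8 falls and 2 rises among 22, with a median of -0.40. SLCO1B3, an organic anion importer known to carry docetaxel, stood at 0.485 and 0.305 CPM in resistant cells, against 10.3 and 8.58 CPM in sensitive cells. The monocarboxylate carriers SLC16A3 and SLC16A7 changed by -2.99 (SE 0.28) and -3.32 (SE 0.36), and SLC22A18, an organic cation carrier, by -2.86 (SE 0.27). Of 31 potassium channel genes 11 fell and 3 rose, with a median of -0.49, and the 3 became 1 without either sensitive library. KCNQ3, a voltage-gated channel, had 2 counts in the resistant libraries together, against 627 in the sensitive libraries, a ratio of 304-fold lower with a counting interval of 83.9 to 2520. KCNN3 and KCNK1 changed by -2.12 (SE 0.31) and -1.94 (SE 0.18). KCNMA1, the large-conductance calcium-activated channel, ran the other way at 45.2 and 62.5 CPM in resistant cells, against 10.9 and 11.5 CPM in sensitive cells.

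The other membrane proteins split. Of 26 aquaporins, tetraspanins and gap junction proteins 7 fell and 6 rose, with a median of -0.29. AQP3, a water and glycerol channel, stood at 11.5 and 11.9 CPM in resistant cells, against 45.3 and 53 CPM in sensitive cells. The tetraspanin TSPAN7 fell by 2.91 (SE 0.46) on the log2 scale. TSPAN18, another tetraspanin, rose to 41.1 and 36.5 CPM in resistant cells, against 7.65 and 7.11 CPM in sensitive cells.

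Genes of fatty acid synthesis and elongation were mostly lower. Of 19 tested members 11 fell and 5 rose, with a median of -0.51. The 5 became 2 without resistant replicate 1 or sensitive replicate 2 and 3 without sensitive replicate 1. FASN, the fatty acid synthase, stood at 162.2 and 178.8 CPM in resistant cells, against 439 and 627 CPM in sensitive cells. SCD, the desaturase that makes oleate, stood at 149.5 and 588 CPM in resistant cells, against 1658 and 2636 CPM in sensitive cells. The resistant replicates differed widely for SCD, yet the groups did not overlap. FADS2, a front-end desaturase of polyunsaturated fatty acids, and its relative FADS3 changed by -1.93 (SE 0.18) and -1.82 (SE 0.14). Of 19 prostaglandin and leukotriene genes 7 fell and 2 rose, with a median of -0.34, and the 2 became 1 without sensitive replicate 2. HPGD, which inactivates prostaglandins, stood at 0.0606 and 0.139 CPM in resistant cells, against 5.69 and 2.17 CPM in sensitive cells. PTGIS, the prostacyclin synthase, changed by -3.04 (SE 0.36) and PLA2G16, a phospholipase of adipose tissue, by -2.09 (SE 0.19).

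Lysosomal hydrolases, the enzymes that digest cargo in lysosomes, showed 14 falls and 3 rises among 38, with a median of -0.26. GAA, the acid glucosidase that breaks down glycogen, stood at 18.9 and 23.2 CPM in resistant cells, against 115.1 and 120.7 CPM in sensitive cells. NEU1, a sialidase, stood at 21.5 and 18.5 CPM in resistant cells, against 53 and 57.6 CPM in sensitive cells. The cathepsins CTSH and CTSB changed by -2.04 (SE 0.29) and -1.19 (SE 0.20). Of 23 COPI and COPII coat proteins, which bud vesicles between the endoplasmic reticulum and the Golgi, 5 fell and 0 rose, with a median of -0.30, and 1 rise had an unadjusted p under 0.05 in edgeR and 0 passed in DESeq2. That count depended on the libraries, at 1 without resistant replicate 1 or sensitive replicate 2 and 10 without sensitive replicate 1. The largest change was that of COPZ2, a zeta-COP subunit, at -1.96 (SE 0.39). Mucin type O-glycosylation enzymes split into 5 rises and 6 falls among 21, with a median of 0.42, and the 5 became 3 without resistant replicate 1. That median turned to -0.17 without sensitive replicate 1 and -0.18 without resistant replicate 2. GALNT6, which starts O-glycans, stood at 8.30 and 8.94 CPM in resistant cells, against 3.25 and 3.30 CPM in sensitive cells, whereas its relative GALNT11 had a log2 fold change of -1.29 (SE 0.15) and the sialyltransferase ST3GAL1 one of -2.50 (SE 0.23).

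Ribosome biogenesis factors, which build ribosomes in the nucleolus, were higher. Of 32 tested, 19 rose and 0 fell, with a median of 0.62 and a range of 0.11 to 1.29. The count rested on particular libraries, at 7 without resistant replicate 1, 7 without sensitive replicate 2, 17 without sensitive replicate 1 and 23 without resistant replicate 2, with 0 falls in each and 0 at an unadjusted p under 0.05 or by DESeq2. DU145 libraries of the same replicate number deviated together (r = 0.542 across genes), and 27 members rose with a replicate block. By DESeq2 21 rose. RRP12, a factor of ribosome export, stood at 123.7 and 112.7 CPM in resistant cells, against 48.3 and 48.3 CPM in sensitive cells. NPM1, nucleophosmin, stood at 1000.4 and 868 CPM in resistant cells, against 486 and 427 CPM in sensitive cells. DKC1, the pseudouridine synthase dyskerin, stood at 396 and 310.3 CPM in resistant cells, against 177.7 and 140.0 CPM in sensitive cells. NOP16 had a log2 fold change of 1.25 (SE 0.24). NOP56, a core protein of small nucleolar ribonucleoproteins, had 0.97 (SE 0.21), and its call was lost without sensitive replicate 2 (0.69) or resistant replicate 1 (0.72). The ribosomal proteins themselves did not follow. Of 46 large subunit proteins 0 rose and 7 fell, and the 7 became 3 without either sensitive library and 4 without resistant replicate 2. Of 32 small subunit proteins 0 rose and 5 fell, and the 5 became 2 without sensitive replicate 1 or resistant replicate 2 and 3 without resistant replicate 1. The falls made up 15.2% of the large and 15.6% of the small subunit proteins, close to the 15.4% of all tested genes. DESeq2 called 0 rises in both, edgeR gave 3 and 1 at an unadjusted p under 0.05, and the median was -0.16 in both. The 74 mitochondrial ribosomal proteins had 19 rises with a median of 0.23, but 4 rises without resistant replicate 1 and 3 without sensitive replicate 2. Their falls numbered 2, 1 without sensitive replicate 2 and 0 without sensitive replicate 1 or resistant replicate 2.

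The promoters of NOP2 and PES1, ribosome biogenesis factors that rose, are shown because they hold the E-box CACGTG, the motif that MYC and related factors bind, which is given in capitals. NOP2, an RNA methyltransferase of the large subunit, stood at 150.9 and 129.4 CPM in resistant cells, against 79.3 and 72.3 CPM in sensitive cells. PES1, a factor of large subunit maturation, stood at 151.5 and 124.8 CPM in resistant cells, against 88.6 and 68.3 CPM in sensitive cells, and its call was lost without sensitive replicate 2 (0.63) or resistant replicate 1 (0.66). Both genes were chosen for this motif after their values were seen. Each sequence runs from 250 bases before to 50 bases after the RefSeq start on the minus strand (GRCh38.p14), at chr12:6568242-6568541 for NOP2 and chr22:30591861-30592160 for PES1.
NOP2: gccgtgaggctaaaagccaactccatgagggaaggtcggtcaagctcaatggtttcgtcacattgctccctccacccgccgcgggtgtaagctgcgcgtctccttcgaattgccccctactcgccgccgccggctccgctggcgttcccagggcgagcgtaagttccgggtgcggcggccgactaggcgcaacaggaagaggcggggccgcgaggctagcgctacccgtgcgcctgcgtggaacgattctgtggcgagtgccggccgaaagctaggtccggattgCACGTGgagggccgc
PES1: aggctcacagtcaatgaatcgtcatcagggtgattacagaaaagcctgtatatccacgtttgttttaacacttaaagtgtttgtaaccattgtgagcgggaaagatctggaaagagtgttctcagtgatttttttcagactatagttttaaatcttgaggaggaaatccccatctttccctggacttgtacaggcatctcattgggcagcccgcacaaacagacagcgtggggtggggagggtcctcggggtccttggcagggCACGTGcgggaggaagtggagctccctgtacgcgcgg
The E-box, whose letters read the same on both strands, was in 8 of the 26 ribosome biogenesis promoters that matched (30.8%). Of those 8 genes 5 rose, against 19 of the 32 tested in the list (59.4%). The E-box was in 13.5% of the matched promoters of actin regulators and 9.0% of those of mitochondrial ribosomal proteins. It was in 7.43% of all 27305 promoters and 9.53% of the 13237 of tested genes. Promoters of genes that rose held it in 10.1% and those of genes that fell in 7.92%. The TEAD motif was in 7.7% of the matched promoters of ribosome biogenesis factors. It was in 5.4% of those of actin regulators and 14.9% of those of mitochondrial ribosomal proteins. The search describes letters in these windows and says nothing of binding.

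Translation initiation factors showed 9 rises and 4 falls among 36, with a median of 0.30, and the 9 became 2 without resistant replicate 1 or sensitive replicate 2. EIF2S2, the beta subunit of eIF2, stood at 273 and 280.1 CPM in resistant cells, against 144.7 and 142.1 CPM in sensitive cells. EIF4EBP1, the repressor of cap-dependent initiation, stood at 32.6 and 41.6 CPM in resistant cells, against 74.2 and 77.0 CPM in sensitive cells. The list holds activators and repressors, and EIF4G3 and EIF4H, both of the activating side, changed by -0.96 (SE 0.14) and -0.80 (SE 0.15).

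Feedback inhibitors of MAP kinase signalling, which are induced by the pathway they restrain, showed 10 rises and 4 falls among 28, with a median of 0.48. The 10 became 5 without sensitive replicate 1 and the 4 became 2 without resistant replicate 1. SPRED2, which blocks RAS activation of RAF, stood at 95.5 and 106.5 CPM in resistant cells, against 34.7 and 35.9 CPM in sensitive cells. SPRY4, a Sprouty inhibitor, stood at 5.52 and 5.16 CPM in resistant cells, against 0.701 and 1.66 CPM in sensitive cells. DUSP6, the ERK phosphatase, stood at 11.7 and 9.33 CPM in resistant cells, against 1.71 and 4.06 CPM in sensitive cells, and its call was lost without sensitive replicate 1. RASAL1, a RAS GTPase activating protein, had 3 counts in the resistant libraries together, against 212 in the sensitive libraries, a ratio of 68.6-fold lower with a counting interval of 23.1 to 335.

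Homologous recombination and Fanconi anaemia genes, which repair double strand breaks and crosslinks, showed 11 rises and 1 fall among 32, with a median of 0.30. The 11 became 6 without resistant replicate 1 and 3 without sensitive replicate 2. ATR, the kinase of replication stress, stood at 109.0 and 123.7 CPM in resistant cells, against 63.4 and 62.3 CPM in sensitive cells. XRCC3, a homologous recombination protein, and FANCI, a crosslink repair protein, had log2 fold changes of 1.03 (SE 0.21) and 0.81 (SE 0.16). FANCF, a subunit of the Fanconi core complex, was the member that fell, to 2.45 and 2.14 CPM in resistant cells, against 8.69 and 6.69 CPM in sensitive cells.

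Motors that walk on microtubules, the target of docetaxel, moved both ways. Of 37 dynein and non-mitotic kinesin genes 8 rose and 7 fell, with a median of 0.29, and the 7 became 4 without sensitive replicate 1. The 8 and 7 make up 21.6% and 18.9% of the list. Over all tested genes 12.4% rose and 15.4% fell. Those shares were 15.2% and 17.9% for protein-coding genes, and 21.2% and 14.6% for genes of at least 100 CPM. KIF7, the ciliary kinesin of Hedgehog signalling, stood at 16.6 and 16 CPM in resistant cells, against 5.69 and 6.32 CPM in sensitive cells. KIF13A, an endosome motor, stood at 118.7 and 116.0 CPM in resistant cells, against 297 and 290.3 CPM in sensitive cells. KIF21B and KIF16B changed by -2.98 (SE 0.38) and -1.23 (SE 0.16).

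Protease inhibitors and chemokines also split. Of 26 serpins and other serine protease inhibitors 8 fell and 5 rose, with a median of -0.53, and the 5 became 2 without resistant replicate 1 and 3 without either sensitive library. SERPING1, the C1 inhibitor, stood at 2.30 and 2.72 CPM in resistant cells, against 23.4 and 21.7 CPM in sensitive cells. SPINT1, the epithelial inhibitor of hepatocyte growth factor activator, stood at 1.88 and 3.72 CPM in resistant cells, against 27.1 and 33.4 CPM in sensitive cells. Of 22 chemokine and receptor genes 6 rose and 4 fell, with a median of 0.25, and the 4 became 1 without sensitive replicate 1 and 2 without any 1 of the other libraries. The median was -0.04 without sensitive replicate 2. CXCL5, a neutrophil attractant, stood at 48.4 and 43.4 CPM in resistant cells, against 12.4 and 7.02 CPM in sensitive cells. CCL28, a mucosal chemokine, had a log2 fold change of 1.89 (SE 0.36), and CCL2, a monocyte attractant, stood at 3.0 and 0.916 CPM in resistant cells, against 0.0841 and 0.0282 CPM in sensitive cells.

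The 13 proteins encoded by mitochondrial DNA gave 0 calls in either direction by edgeR or DESeq2 and 0 at an unadjusted p under 0.05, although their median of 0.26 was among those farthest from 0. MT-ND4, a complex I subunit, stood at 2367 and 247 CPM in resistant cells, against 823 and 1162 CPM in sensitive cells. MT-CO1, a complex IV subunit, stood at 1936 and 476 CPM in resistant cells, against 772 and 1444 CPM in sensitive cells. The groups overlapped for both genes, and the direction turned with the library left out. Without resistant replicate 1 the list had 10 falls and 0 rises, and without resistant replicate 2 it had 9 rises and 0 falls.

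The other 32 lists were not described in full. Of these, cancer-testis antigens had a median of 0.37 and were left out because only 7 members could be tested. In the 31 lists with at least 8 tested members, medians lay nearer to that of all genes and ran from -0.19 to 0.23. Of 935 tested entries in them 130 were higher and 135 lower. These 31 lists covered respiratory complexes, the citric acid cycle, autophagy, glycosylation, phospholipids, p53 targets and splicing factors, among others.

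Calls were spread unevenly over the chromosomes. The highest shares of genes that rose were on chromosome 5 (220 of 904, 24.3%), chromosome 20 (22.0%) and chromosome 13 (21.3%), against 12.4% over all tested genes. The highest shares that fell were on chromosome 8 (223 of 738, 30.2%), chromosome 7 (280 of 985, 28.4%) and chromosome 10 (22.6%), against 15.4% over all. The median log2 fold change of the tested genes was 0.24 on chromosome 5 and 0.21 on chromosome 13, and -0.35 on chromosome 8 and -0.34 on chromosome 7. Chromosome 7 therefore held 7 of the 12 largest abundant rises and also one of the highest shares of falls. Copy number was not measured here.

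**Figure D4:**
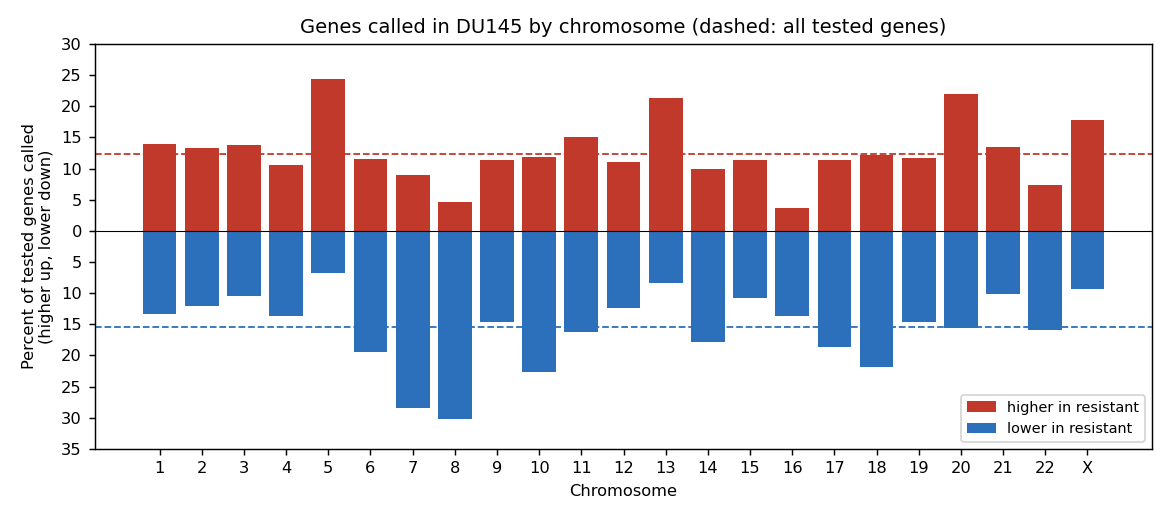
Percent of tested genes on each chromosome that were higher (up) or lower (down) in DU145 resistant cells, with dashed lines at 12.4% and 15.4% for all tested genes. Chromosomes 5, 13 and 20 stand farthest above the upper line and chromosomes 7, 8 and 10 farthest below the lower one. Others pass a line by less, such as chromosome X with 17.8% higher and chromosome 18 with 21.9% lower.

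Set beside PC3, most of the ranked DU145 genes differed in their change. The DU145 change was tested against the PC3 change in the same fit, where 6951 of 20238 genes (34.3%) differed. Of 48 ranked genes 45 differed, 28 of which did not pass in PC3, 7 of which went the opposite way and 10 of which went the same way by another size. The genes were ranked on their DU145 change, which enters the difference, so this count is a description of the ranking. Some of the 28 were near the floor in both PC3 variants, so a PC3 change could hardly be measured. Examples are GGT5 at 0 to 0.101 CPM and LGSN at 0.0897 to 0.228 CPM over the PC3 libraries. CDK6 had a log2 fold change of 4.36 (SE 0.17) in DU145 and -0.06 in PC3. CDH1, not among the ranked genes, fell in DU145 and rose in PC3 with a log2 fold change of 2.56. KRT8 had -5.88 in DU145 and 0.53 in PC3, and MYL9 had 2.88 in DU145 and -3.78 in PC3. ANKRD1, at 2.93 in DU145 and 3.05 in PC3, ILDR2, at 6.37 and 6.74, and HTR1F, at 5.77 and 1.10, did not differ past the threshold. The difference was -0.12 for ANKRD1 and -0.37 for ILDR2, whereas that of HTR1F, 4.67 with an adjusted p of 0.175 by edgeR, was wide. In PC3 HTR1F was near the floor, at 0.0897 and 0.0506 CPM in resistant cells, against 0.0305 and 0.0324 CPM in sensitive cells.

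**Figure D5:**
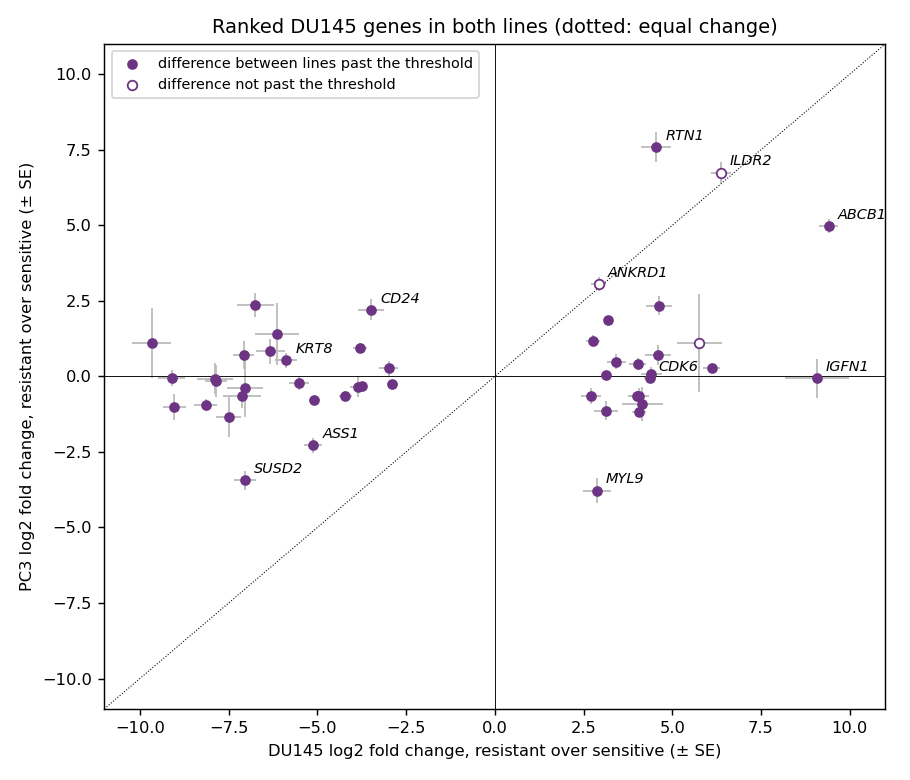
Log2 fold change, resistant over sensitive, of the ranked DU145 genes in DU145 (x axis) and PC3 (y axis), each with its SE, with filled points where the difference between the lines passed the threshold. ILDR2 and ANKRD1 lie at the dotted line of equal change, RTN1 lies above it, and most other points lie near 0 on the PC3 axis.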

How the data were processed

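Each library came as a table of raw read counts over genes that the authors deposited, with Bowtie and hg38 named in the submitters' processing notes. No source used here names the Bowtie version, the counter, the annotation or the strand setting, and the reads carry no molecular identifiers. Biotypes and positions were taken from GENCODE 44 for the 56558 of 60554 genes that it lists.

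Genes were filtered with filterByExpr by group, which left 20238, of which 190 had no counts in DU145. Counts were scaled by TMM and fitted over all 8 libraries, which share 1 estimate of the spread (common biological coefficient of variation 17.1%, 4 residual degrees of freedom), in edgeR 4.0.16 (R 4.3.3). The contrast of resistant minus sensitive DU145, and the DU145 change minus the PC3 change, were tested with the quasi-likelihood test and Benjamini-Hochberg adjustment over all tested genes, and called at 0.05. The SE was taken as the size of the log2 fold change over the root of its F statistic. No library was taken for a repeat of another, since counts of replicates varied beyond sampling noise in every group.

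The gene lists, 57 with 1656 entries (7 without a row), and the rule for named genes were chosen with earlier results of these data known. The rule takes the 15 largest rises and 15 largest falls of protein-coding genes averaging 10 CPM or more in DU145 and non-overlapping groups, the 12 and 12 of at least 100 CPM, 5 and 5 long noncoding RNAs, up to 5 called members of each list described, and ABCB1. The text names fewer than the rule takes, a few of which are not reported here, and NOP2, PES1 and EPCAM besides it. Alternatives were DESeq2 1.42.0, RLE scaling, leaving out the low count filter, 1 CPM in 4 libraries, DU145 alone, a replicate block, each DU145 library left out, an adjusted p under 0.01 and a 2-fold limit. Promoters are from RefSeq (GRCh38.p14), and 13237 tested genes matched. The steps were tested on simulated data.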

Additional observations from a re-analysis of the deposited data

Results flagged for a closer look

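The difference of the DU145 change from the PC3 change passed the threshold of edgeR's test for 45 of the 48 ranked genes named in the report, and each is given here as DU145 log2 fold change minus PC3 log2 fold change. The ranking used the DU145 change, so the number of such genes is a description.

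A group of 7 genes passed in both lines in opposite directions. The differences were 5.22 for DSC3, 4.68 for TGFB1I1, 4.27 for THBS1 and 6.65 for MYL9, which were higher in DU145 resistant cells and lower in PC3 resistant cells. They were -9.11 for SLPI, -4.73 for TGM2 and -5.68 for CD24, which were lower in DU145 resistant cells and higher in PC3 resistant cells.

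A further 10 genes passed in both lines in the same direction by different amounts. The difference was 4.43 for ABCB1, 2.29 for IL31RA, 1.32 for ADAM22 and 1.58 for SRI, which rose more in DU145, and -3.04 for RTN1, which rose more in PC3. It was -7.19 for CDA, -3.61 for SUSD2, -2.83 for ASS1, -4.31 for ABCC2 and -3.58 for IGFBP4, which fell more in DU145.

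The remaining 28 genes did not pass in PC3. For some of them PC3 had almost no counts in either variant, so the size of the difference is uncertain. GGT5 stood at 0.0449 and 0.101 CPM in PC3 resistant cells, against 0.0609 and 0 CPM in PC3 sensitive cells. CYP4F3, CYP4F11, LGSN and BRDT were below 0.3 CPM in every PC3 library. Among those that rose in DU145, the difference was 9.14 for IGFN1, 5.84 for EFNB2, 3.88 for CTGF, 4.32 for PTX3, 4.42 for CDK6, 5.07 for TAGLN, 4.69 for SLFN11, 3.60 for CROT, 2.94 for DBF4, 3.09 for SLC25A40 and 3.36 for TPM1. Among enzymes that fell in DU145, it was -10.78 for GGT5, -9.05 for AKR1C1, -8.02 for AKR1C2, -6.15 for CYP4F3, -6.65 for CYP4F11, -5.27 for ALDH3B1 and -2.62 for PGD. Among the other genes that fell, it was -7.81 for SDPR, -7.70 for LGSN, -6.46 for MISP, -7.79 for BRDT, -7.16 for FAM83A, -7.54 for RSPO3, -6.41 for KRT8, -3.52 for KLB, -3.43 for CRISPLD1 and -3.27 for SMIM14.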

How the results depend on the processing

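The counts of 2513 higher, 3120 lower and 6951 differing genes stayed within 1.5 times under DESeq2 (2637, 3012 and 6972), RLE scaling, a minimum of 1 CPM in 4 libraries, no filter on low counts and, for the first 2 counts, the 4 DU145 libraries alone. With 1 DU145 library left out, higher genes ranged from 1380 (without sensitive replicate 2) to 2307 (without resistant replicate 2), with fewer samples to test on. At an adjusted p under 0.01 they were 1284, 1842 and 4073, and with a 2-fold limit 1021 and 2002, as stricter limits pass fewer genes. Replicate numbers pair no samples by the labels. Samples of 1 number deviated together (r = 0.542 across genes in DU145 and 0.17 in PC3), and a replicate block gave 3644, 4112 and 8964. Of 135 genes named, 127 kept direction and call under every alternative that gave a value. The exceptions besides those given in the report were FOXA1 at -0.63 and ESAM at 1.05 with DU145 libraries alone, and MT-CO1 and MT-ND4, which were not called. With the replicate block, MT-CO1 was -0.14 and MT-ND4 -0.35. With 1 library left out MT-CO1 ranged from -1.22 to 0.84 and MT-ND4 from -2.01 to 1.29. With no filter on low counts MT-ND4 passed the threshold (0.43) and MT-CO1 did not. The cause was not tested. List medians moved by more than their spread over pairs of libraries in 84 of 569 cases, 67 of them with a library left out. With 2 libraries a group and 4 residual degrees of freedom, small changes of low genes are the least certain.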
